A study of Mus musculus with 4 samples.

Results

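To ask whether the effect of DNMT1 siRNA on gene expression depended on osteoblast (OB) induction, the log2 ratio of the library labelled siDNMT1_OB to OB was compared with the log2 ratio of siDNMT1 to control, gene by gene. The difference between these ratios, here called the difference of differences, is 0 where both treatments add on the log2 scale. It is positive where the library labelled siDNMT1_OB held more than the other libraries predict (above additivity) and negative where it held less (below additivity). Genes were taken by a mean level of at least 1 CPM (read counts after scaling for library size) over the 4 libraries, which kept 13233 of 54532 genes.

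The cells were C3H10T1/2, a line of mouse embryonic origin with mesenchymal stem cell properties, which can form bone, cartilage, fat or muscle cells in culture. The control library was made from cells given a control siRNA and left untreated, and siDNMT1 from untreated cells given siRNA against DNMT1. The OB library was made from cells given the control siRNA and then 3 days of OB induction (50 µM ascorbic acid, 10 mM glycerophosphate and dexamethasone), and siDNMT1_OB from cells given DNMT1 siRNA and the same induction. Transfection lasted 48 h in every group. Neither untreated library was labelled as kept in culture for the same 3 days. Induction, time in culture and time since transfection therefore cannot be told apart here, and induction below stands for all of them together. Each group was 1 library of 1 cell line, so nothing below was checked on replicates and p-values are not given. The libraries held between 22296046 (OB) and 27367792 (control) counts. A gene was called when its difference of differences was at least 1 in size and its 95% counting interval left out 0. These intervals cover the counting error of reads, which carried no molecular identifiers, and not the variation between dishes. Levels are given throughout in the order control, siDNMT1, OB and the library labelled siDNMT1_OB.

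DNMT1 is the maintenance methyltransferase: it acts on CpG sites that carry a methyl group on the parental strand alone, which keeps the methylation pattern through cell division. Loss of that copying in a dividing cell is known to leave gene promoters and repeats less methylated, and repeats that become active can set off the interferon response to double-stranded RNA. OB induction takes mesenchymal cells out of the cell cycle and into production of matrix, with ascorbic acid as a cofactor of collagen hydroxylation and of prolyl hydroxylases that mark hypoxia-inducible factors for destruction. Dexamethasone acts through the glucocorticoid receptor.

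Dnmt1 (ENSMUSG00000004099, chromosome 9 from 20907209 to 20959888, minus strand, GRCm38) was examined first because it is the target. Its levels were 265, 132, 85.3 and 93.1 CPM. The siDNMT1 effect was −1.01 on the log2 scale in untreated cells and 0.13 under OB induction, a difference of differences of 1.13 (95% counting interval 1.03 to 1.24). The target itself was therefore above additivity, and in the library labelled siDNMT1_OB its mRNA did not lie below the OB level. The cause was not tested, and a mislabelled library, a target no longer lowered after induction and other causes cannot be told apart here. Every direction drawn from the library labelled siDNMT1_OB below is subject to this. An effect of DNMT1 siRNA under induction means the ratio of the library so labelled to OB. Of 20 tested genes for writers, readers and erasers of DNA methylation, 3 were called, all above (15%, against 3.14% of all genes). The list median was −0.10. Besides Dnmt1 these were Uhrf1, the DNMT1 partner that recognises hemimethylated DNA, and Hells, a chromatin remodeller needed for DNA methylation, which were named after their values were seen. Uhrf1 held 203, 165, 41.3 and 89.1 CPM, and Hells 111, 79.1, 25.3 and 42.9. Both, like Dnmt1, are known to be expressed mainly in cycling cells.

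The line's identity was checked with marker lists. All 11 mesenchymal markers had counts in every library (10 passed the expression filter), with a summed level between 17440 and 21467 CPM. Of 9 macrophage, 6 endothelial and 7 epithelial markers, 2, 1 and 0 passed the expression filter, and their summed levels stayed between 10.5 and 12.9, 2.62 and 7.85, and 0.354 and 1.14 CPM. In each library 2 to 3, 1 to 2 and 3 to 5 of these markers were at 0. The 5 neural markers summed to between 101 and 315 CPM, highest in the library labelled siDNMT1_OB. Nearly all of that was Map2, which reached 310 CPM, and 1 or 2 of the 5 were at 0 in each library.

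Of the 13233 genes, 415 were called above additivity (3.14%) and 350 below it (2.64%), together 5.78%. Counts of called list members below are to be read beside these shares, which a single call exceeds in a short list. The median difference of differences over all genes was 0.005 with quartiles of −0.24 and 0.25, and 77.5% of genes lay within 0.5 of 0. Because the data are bulk RNA, fewer cells of a kind and less RNA per cell cannot be told apart in any of these values.

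**Figure D1:**
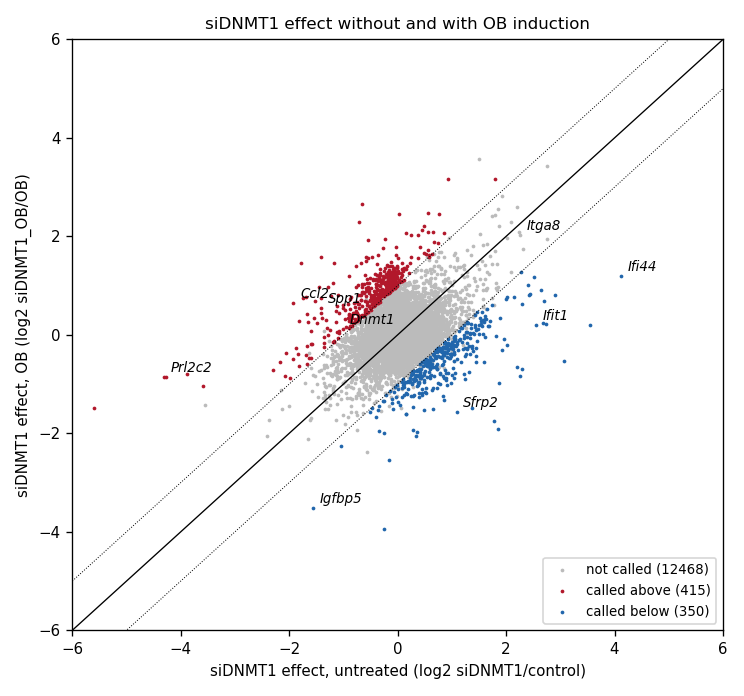
The siDNMT1 effect of each of the 13233 genes in untreated cells (x axis, log2 siDNMT1/control) is plotted against the effect under OB induction (y axis, log2 of the library labelled siDNMT1_OB to OB). Points on the solid line are additive, dotted lines lie 1 above and 1 below it, and the 415 red and 350 blue points are the called genes. Dnmt1 sits above the line, at −1.01 and 0.13.

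The called genes were sorted by the state in which DNMT1 siRNA moved them by at least 1. Of the 415 above additivity, 176 did so under OB induction only, 58 in untreated cells only, 3 in both states in the same direction and 4 in both in opposite directions, while 174 stayed under 1 in each state and passed through the sum. Of the 350 below, 113 did so in untreated cells only, 60 under OB induction only, 6 in both in the same direction and 4 in opposite directions, and 167 in neither. Among genes moved in 1 state only, those above additivity were thus more often moved in the induced state and those below it in the untreated state.

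The direction of the departures followed the OB response. Among the 415 genes above additivity, 386 were lower in OB than in control, with a median OB response of −1.91 with control siRNA against −0.60 with DNMT1 siRNA. Among the 350 below, 343 were higher in OB than in control, with medians of 1.74 and 0.35. These medians hold the values that made the calls, so they are only a description. The OB responses with control siRNA and with DNMT1 siRNA share no library, and were therefore also compared over genes picked by each in turn. The 1404 genes raised at least 1 by induction with control siRNA had medians of 1.53 with control siRNA and 1.09 with DNMT1 siRNA, and the 940 lowered genes −1.51 and −0.81. When the genes were picked by the response with DNMT1 siRNA, which favours that siRNA, the 904 raised genes still had medians of 1.81 with control siRNA and 1.49 with DNMT1 siRNA, and the 359 lowered genes −1.87 and −1.21. The OB response was smaller with DNMT1 siRNA whichever siRNA picked the genes. In bins of the mean of both responses, which favours neither, the response with DNMT1 siRNA was smaller for 347 of 392 genes (88.5%) between −1.5 and −1 and for 393 of 518 (75.9%) between 1 and 1.5. A single scale factor of 0.740 (the ratio of the standard deviations of both responses) was also tried, a choice made after the data were seen. Against an OB response scaled by that factor, 169 genes were called above and 113 below.

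**Figure D2:**
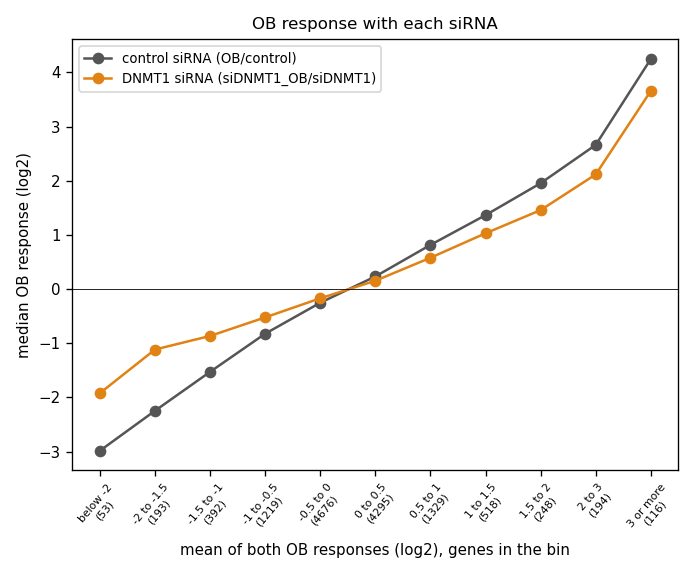
Median OB response on the log2 scale (y axis) with control siRNA (grey, OB/control) and with DNMT1 siRNA (orange, the library labelled siDNMT1_OB to siDNMT1), for genes binned by the mean of both responses (x axis, number of genes in brackets). The orange line lies closer to 0 in each of the 11 bins, at −1.92 against −2.98 in the lowest bin and 3.66 against 4.25 in the highest.

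Among protein-coding genes with at least 10 counts in every library, those furthest above additivity included Prl2c2, Prl2c3, Ccl2, Aldh3a1, Ak4, Aif1l, Adcyap1r1, Arhgap22 and Krt80. Prl2c2, which encodes proliferin, a secreted growth factor of the prolactin family made by dividing fibroblasts, held 160, 8.0, 6.98 and 3.81 CPM. Each treatment alone lowered it over 4 log2 units, so additivity gave 0.350 CPM and the difference of differences was 3.44 (3.01 to 3.87). Its neighbour Prl2c3 behaved alike, at 66.0, 3.36, 2.43 and 1.31 CPM. However, 71.8% of the 75-base windows of Prl2c2 and 51.7% of those of Prl2c3 are shared with other genes, mainly each other. The counts of the pair are therefore uncertain. Aldh3a1, an aldehyde dehydrogenase, was lowered by each treatment too, from 24.0 CPM in control to 1.91 in siDNMT1 and 4.86 in OB, and held 2.32 in the library labelled siDNMT1_OB. In these 3 genes the combined level stayed low, below the OB level in each, and was above what the sum of the single effects gives.

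Other genes of this set went up with DNMT1 siRNA only under induction. Ccl2, the chemokine that attracts monocytes, held 20.2, 5.27, 5.44 and 8.56 CPM, and its difference of differences was 2.57 (2.16 to 3.03). Aif1l, an actin-bundling protein, went from 1.29 to 0.859 CPM with DNMT1 siRNA in untreated cells and from 0.619 to 2.58 CPM under induction. Adcyap1r1, the receptor of the peptide PACAP, went from 6.23 to 1.87 CPM and from 2.48 to 4.30 CPM. Krt80, a keratin, shares exon positions with Gm35853 on the opposite strand and is uncertain for that reason. Of called genes with under 10 counts in a library, Msln (5.61, 0.0390, 0.663 and 0.187 CPM), Rgs5 (2.21, 1.37, 0.265 and 2.09) and Gsta1 (3.98, 0.195, 0.707 and 0.374) were furthest above. Their intervals were wide, 1.98 to 10.9 for Msln, and 84.7% of the windows of Gsta1 are shared with other genes, mainly Gsta2.

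The 10 furthest below additivity were Ifi44, Gdpd2, Sfrp2, Pi16, Ifit1, Ppp1r3c, Abca1, N4bp2l1, Bmf and Lpl. Gdpd2, a glycerophosphodiesterase of differentiating osteoblasts, held 0.922, 3.59, 289 and 147 CPM, where additivity gave 1127 CPM, a difference of differences of −2.86 (−3.65 to −2.29). Sfrp2, a secreted modulator of WNT signalling, held 4.13, 8.86, 24.1 and 8.11 CPM. The siDNMT1 effect was thus 1.09 in untreated cells and −1.56 under induction. Abca1, the exporter of cellular cholesterol, held 8.74, 10.7, 39.0 and 10.2 CPM, so that it was higher in OB than in each of the other libraries. Bmf, a pro-apoptotic BCL2 family protein, held 6.01, 18.3, 59.5 and 40.6 CPM, and Ppp1r3c, a glycogen-targeting phosphatase subunit, 0.406, 1.76, 6.41 and 5.19. Lpl, the lipoprotein lipase, held 0.369, 0.976, 2.08 and 1.08 CPM and had 10 counts in control. Each of the 10 genes was higher in OB than in control. Of called genes with under 10 counts in a library, Slc1a2, the glial glutamate transporter (0.0738, 0.469, 4.15 and 1.05 CPM), Iigp1, an interferon-induced GTPase (0.221, 2.42, 9.72 and 6.73), and Adh1, an alcohol dehydrogenase that can oxidise retinol (0.184, 0.820, 4.07 and 1.16), were furthest below, and the interval of Slc1a2 ran from −7.90 to −2.33.

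**Figure D3:**
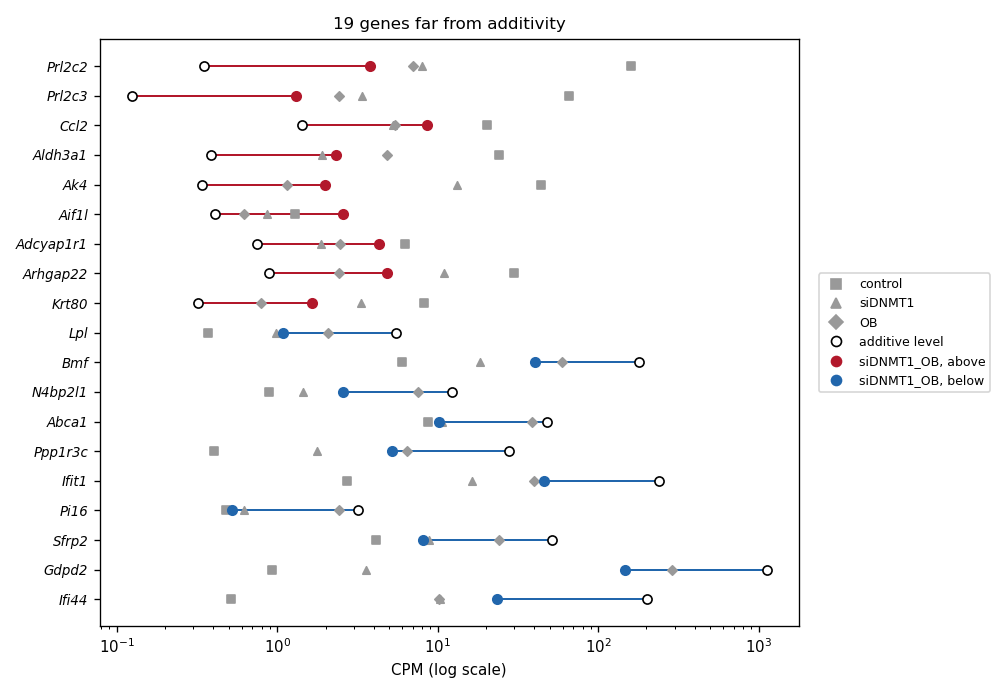
Level in CPM (x axis, log scale) of 19 protein-coding genes far from additivity, among those with at least 10 counts in every library. Grey symbols are control, siDNMT1 and OB, the open circle is the level that additivity gives and the filled circle is the library labelled siDNMT1_OB. Filled circles lie right of open ones for the 9 upper genes, as 3.81 against 0.350 CPM for Prl2c2, and left of them for the 10 lower genes, as 23.5 against 203 CPM for Ifi44.

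Cell cycle genes made up the largest group above additivity among the lists examined. Of 62 tested genes of mitosis and G2/M, 40 were called above and 0 below, with a median difference of differences of 1.09. Of 53 tested genes of DNA replication and S phase, 31 were called above and 0 below, with a median of 1.03. Over all genes 3.14% were called above. In control siRNA cells induction lowered 62 of the 62 mitosis genes (median −2.19) and 53 of the 53 replication genes (median −1.88). With DNMT1 siRNA the medians were −1.08 and −0.71. In untreated cells the siRNA effect had a median of −0.06 on mitosis genes and −0.34 on replication genes, and under induction 1.03 and 0.72. The departure in these genes thus lay mainly in the induced state, where the library labelled siDNMT1_OB kept more cell cycle mRNA than OB did.

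Ndc80, a kinetochore protein that holds microtubules, held 61.4, 59.8, 8.97 and 27.8 CPM, and its difference of differences was 1.66 (1.42 to 1.91). Birc5, the survivin subunit of the chromosomal passenger complex, held 107, 73.5, 20.7 and 42.9 CPM, and Kif23, a kinesin of cytokinesis, 94.2, 93.2, 15.2 and 39.5. For these genes the library labelled siDNMT1_OB lay between both untreated libraries and OB, below the former. The same held for the replication genes. Tk1, thymidine kinase, held 127, 85.3, 24.2 and 53.6 CPM (1.71, 1.55 to 1.88), Rrm2, the S-phase subunit of ribonucleotide reductase, 115, 73.0, 27.5 and 56.2 (1.68, 1.53 to 1.84), and Mcm5, a subunit of the replicative helicase, 188, 138, 26.9 and 58.0 (1.56, 1.41 to 1.71). Ung, the uracil-DNA glycosylase, was furthest above in its list at 1.81 (1.15 to 2.60). Mcm7 differed from the others in that the siRNA lowered it by 1.67 in untreated cells and by 0.22 under induction, at 162, 50.8, 42.2 and 36.2 CPM, and it shares exon positions with Ap4m1 and Cops6 on the opposite strand. Of the 14 tested D-type cyclins, CDK inhibitors and pocket proteins, 1 was called above (7.14%, against 3.14% of all genes), with a list median of 0.26. It was Ccnd1 (cyclin D1, named after its value was seen), at 375, 296, 191 and 361 CPM. Under the single scale factor for the OB response the mitosis and replication medians stood at 0.52 and 0.57, still above 0.

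Mitosis genes are known for the cell cycle genes homology region (CHR, TTTGAA, bound by the DREAM complex). The promoter of Ect2, which encodes the activator of RhoA at the division site, is shown because it holds a match. Members further from additivity, such as Ndc80 and Kif18b, held no match or had no promoter sequence to search. Ect2 held 95.1, 86.5, 16.8 and 38.9 CPM. The stretch is 86 bases of the RefSeq promoter table (GRCm38.p6, minus strand, chr3:27153947-27154032, starting 154 bases before the start site), with the CHR match in capitals.
Ect2: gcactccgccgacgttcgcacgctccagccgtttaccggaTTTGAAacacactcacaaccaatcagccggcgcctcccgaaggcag
Of the 52 mitosis genes matched in that table, out of 62, 18 (34.6%) held TTTGAA on either strand in the 250 bases before the start, against 16.3% of all 27025 promoters in the table. Among the other lists matched well enough for a share, it was in 5 of 9 promoters (55.6%) of the small leucine-rich proteoglycans, which lay on the opposite side, so the match is not particular to mitosis genes. The CCAAT box, the short site of NF-Y, was in 39 (75%) against 34.5%. These shares were not adjusted for base composition, which had a median of 59.4% GC in the mitosis promoters and 52.0% in the table, and a match is a description of letters, not of binding.

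The list of glycolysis and the hypoxia response also had a median above additivity, but its members did not move as one. Of 32 tested, 8 were called above (25%, against 3.14% of all genes) and 0 below. The median was 0.69, and 25 were positive. Ldha, lactate dehydrogenase A, held 1430, 476, 308 and 272 CPM, where additivity gave 103, a difference of differences of 1.41 (1.35 to 1.46). Aldoa, aldolase, held 1026, 292, 352 and 226 CPM, and Eno1, enolase, 1561, 999, 440 and 575. Pgk1 and Pgam1 gave 1.17 and 1.18, but 52.8% and 34.9% of their windows are shared with pseudogenes or relatives. Ak4, a mitochondrial adenylate kinase induced by hypoxia, held 44.3, 13.2, 1.15 and 1.98 CPM. For this group, unlike the cell cycle genes, the median siDNMT1 effect was −0.65 in untreated cells and 0.00 under induction. DNMT1 siRNA raised 6 of the 32 in untreated cells, induction with control siRNA lowered 25, and 7 members lay on the other side at up to −0.61 (Pfkfb3, a regulator of glycolytic flux, named after its value was seen). Hypoxia-response members were spread, with Adm at −0.51, Ndrg1 at −0.26, Vegfa at 0.32, Bnip3 at 0.71, Pdk1 at 0.89 and Ak4 at 2.49. All of these but Ak4 were named after their values were seen. Under the single scale factor the list median was 0.40.

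The promoters of Ldha and Pgam1 are shown because the hypoxia element ACGTG, bound by hypoxia-inducible factors, lies in them. The stretches are from the same RefSeq table on the plus strand, chr7:46845730-46845803 for Ldha and chr19:41911717-41911801 for Pgam1, with matches on either strand in capitals.
Ldha: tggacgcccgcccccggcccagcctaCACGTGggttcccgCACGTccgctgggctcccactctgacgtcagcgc
Pgam1: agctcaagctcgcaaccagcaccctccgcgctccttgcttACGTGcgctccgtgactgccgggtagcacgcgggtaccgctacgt
Of 31 matched genes of the list, 14 (45.2%) held ACGTG in the 250 bases, against 16.6% of all promoters, with a median GC content of 62.8% against 52.0%. The share was 5 of 12 (41.7%) in the GC-rich promoters of the IGF axis (median 69.2% GC) and 14 of 52 (26.9%) in those of mitosis genes, so it is not particular to this list. The run CACGTG in Ldha reads the same on both strands and counts as matches that overlap.

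Cholesterol and fatty acid synthesis was shifted as a group by smaller amounts. Of 34 tested genes 33 were positive, with a median of 0.79. Called above were 6 (17.6%, against 3.14% of all genes), and 0 below. Idi1, which isomerises the isoprenoid building block, held 207, 176, 184 and 376 CPM, a difference of differences of 1.27 (1.19 to 1.34). Lss, which closes the lanosterol ring, held 140, 136, 131 and 282 CPM, and Msmo1, the methylsterol oxidase, 251, 231, 209 and 418. Sqle and Acat2 were called too, at 1.10 and 1.15, and 33.9% of the windows of Acat2 are shared with Acat3. In this group the 3 libraries other than siDNMT1_OB were close together and the library labelled siDNMT1_OB stood apart. The medians were −0.15 and 0.65 for the siDNMT1 effect without and with induction, and 0.07 and 0.86 for the OB response with control and with DNMT1 siRNA. Under the single scale factor for the OB response the list median was 0.79. Abca1, which moves cholesterol out of the cell, lay on the opposite side, as given above.

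**Figure D4:**
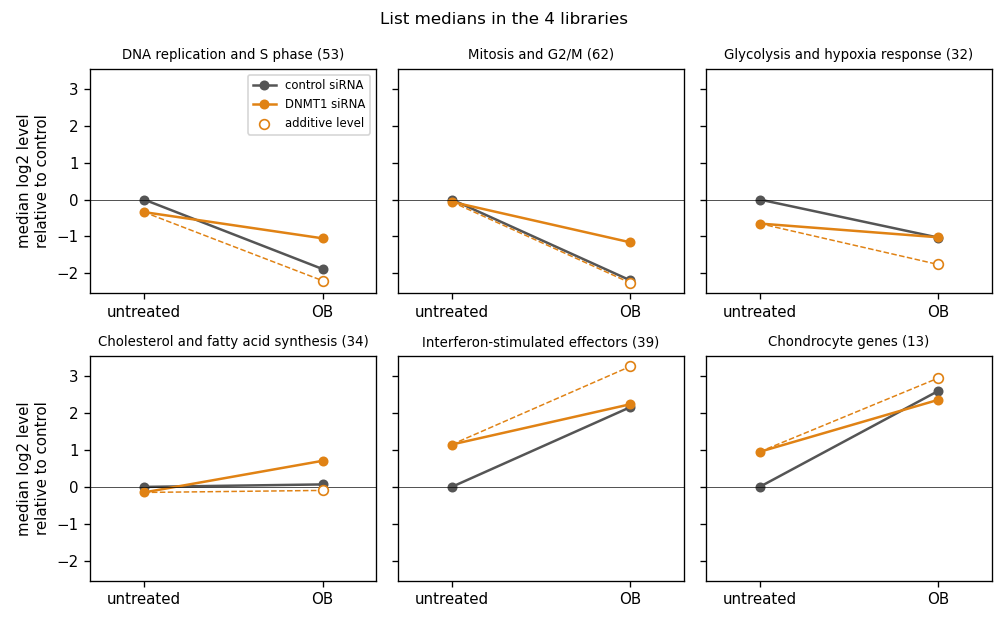
Median log2 level relative to control (y axis) of the members of 6 gene lists (number tested in brackets), in untreated and OB states (x axis), with control siRNA (grey) and DNMT1 siRNA (orange, where the OB point is the library labelled siDNMT1_OB). The open circle and dashed line give the additive level, which is −2.26 against an observed −1.16 for mitosis genes, −0.10 against 0.71 for cholesterol and fatty acid synthesis, and 3.27 against 2.24 for interferon-stimulated effectors.

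Interferon-stimulated effectors were the largest group below additivity among the lists examined. Of 39 tested genes 38 were negative, with a median of −0.87, and 16 were called below and 0 above, where 2.64% of all genes were called below. DNMT1 siRNA raised 38 of the 39 in untreated cells by a median of 1.15. Induction with control siRNA raised 38 too, by a median of 2.16. Under induction the siRNA effect had a median of 0.23. Under the single scale factor the list median was −0.40. The effectors were thus moved up by each treatment alone, and the library labelled siDNMT1_OB held them at about the level of OB, with a median of 2.24 over control against 2.16 in OB.

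Ifi44, an interferon-induced cytoplasmic protein, held 0.516, 10.3, 10.2 and 23.5 CPM, where additivity gave 203 (−2.92, −4.03 to −2.30). Ifit1, which binds foreign RNA ends, held 2.73, 16.3, 39.9 and 46.0 CPM (−2.34, −2.77 to −1.99). Mx2, of the antiviral Mx GTPase family but annotated as a polymorphic pseudogene, held 0.811, 5.86, 10.3 and 12.1 CPM. Oasl2, a protein of the oligoadenylate synthetase family, held 0.664, 4.76, 12.7 and 20.4. The library labelled siDNMT1_OB was the highest of the 4 for each of these genes and still below additivity. Ddx60, an RNA helicase, and Oas2, an oligoadenylate synthetase, gave −3.35 and −2.09 with 4 counts and 1 count in control, so their sizes rest on that library. Usp18, the protease that removes ISG15 and damps interferon signalling, held 0.922, 6.17, 8.13 and 15.4 CPM (−1.73, −2.54 to −1.15). The direction depended on the scale for some of them. On the linear CPM scale, where effects add as amounts, Ifi44, Oas2, Oasl2 and Usp18 lay above additivity by 7.96%, 21.4%, 9.35% and 6.58% of their summed CPM, while Ifit1 and Mx2 remained below. Across all tested genes, 18 of the 350 genes called below lay above additivity on the linear scale, and 2 of the 415 called above lay below it.

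The promoter of Ifit1 is shown for its interferon-stimulated response element, searched as the core GAAANNGAA, the site of IRF9 and of other IRF factors. The stretch is 89 bases on the plus strand, starting 124 bases before the start (chr19:34640765-34640853, GRCm38.p6), with 3 matches on either strand in capitals, of which a pair overlaps.
Ifit1: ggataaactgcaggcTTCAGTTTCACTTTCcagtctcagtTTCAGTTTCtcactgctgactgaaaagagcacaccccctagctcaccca
The core is found in 7.16% of all promoters of the table. Of the 39 tested effectors 28 were matched in it, under the 80% set as the least for a share over the list, so that check is void and no share is given.

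Among 21 tested RNA sensors and interferon signalling genes, 4 were called below and 1 above, with a median of −0.28. Transcription factors of the response lay below. Irf7, its amplifying transcription factor, held 2.25, 7.26, 13.7 and 15.5 CPM (−1.48, −2.0 to −1.03) and Irf9, the DNA-binding subunit of the interferon-activated complex, 18.1, 55.4, 67.1 and 87.2 (−1.23, −1.41 to −1.06). Irf7 shares exon positions with Phrf1 on the opposite strand, and Irf9 with Rnf31 on its own. Dhx58, a sensor of double-stranded RNA, gave −1.44. Of the sensors themselves Ifih1 (MDA5) gave −0.86 and Ddx58 (RIG-I) −0.53. The 1 gene above was Mb21d1, the DNA sensor cGAS, named after its value was seen, at 15.2, 11.3, 4.86 and 8.71 CPM (1.25, 0.86 to 1.67). Of 18 tested genes of MHC class I presentation 2 were called below (11.1%, against 2.64% of all genes). They were Psmb9 and H2-T23 (named after their values were seen), and the list median was −0.16.

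Secreted immune proteins went both ways. Of 10 tested complement genes 2 were called below (20%, against 2.64% of all genes) and 0 above. The list median was −0.61, which the single scale factor brought to −0.057. C3, the central complement protein, held 0.258, 0.351, 78.8 and 20.1 CPM (−2.32, −4.08 to −0.81), from 7 and 9 counts in the untreated libraries. C4b held 0.516, 0.937, 4.55 and 2.62 CPM, with 22.7% of its windows shared, mainly with C4a. Both were induced, less so with DNMT1 siRNA. Of 8 tested chemokine ligands 2 were called above (25%, against 3.14% of all genes). They were Ccl2 and its neighbour in function Ccl7 (3.47, 1.99, 1.55 and 3.10 CPM, 1.74, 1.01 to 2.61). The 1 called below (12.5%) was Cxcl5, a neutrophil chemokine named after its value was seen (−1.0, −1.51 to −0.53). Cxcl12, the abundant stromal chemokine, gave 0.40 (0.38 to 0.43).

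**Figure D5:**
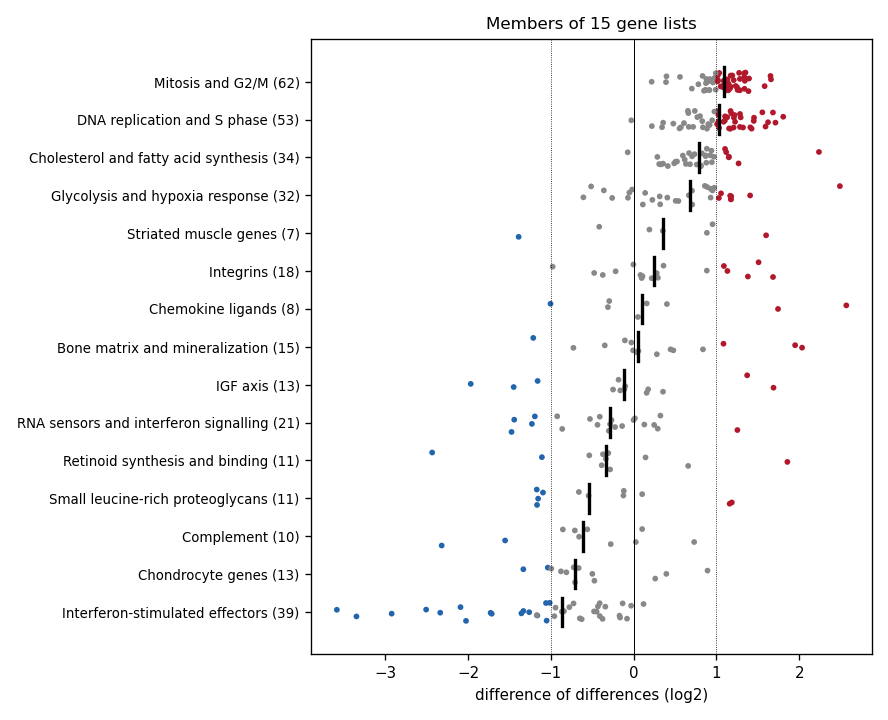
Difference of differences on the log2 scale (x axis) of each tested member of the 15 gene lists with a median at least 0.5 from 0 or at least 20% of members called (number tested in brackets). Red and blue points are members called above and below additivity, black bars are list medians and dotted lines mark 1 and −1. The mitosis members lie between 0.22 and 1.66 and the interferon-stimulated effectors between −3.59 and 0.12.

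Chondrocyte genes had a median below additivity, with few calls. Of 13 tested 10 were negative, with a median of −0.71. Called below were 2 (15.4%, against 2.64% of all genes), and 0 above. Their OB response had a median of 2.60 in control siRNA cells and 1.61 in DNMT1 siRNA cells, while DNMT1 siRNA raised 12 of the 13 in untreated cells by a median of 0.95. Matn3, a cartilage matrilin, held 0.738, 2.30, 3.54 and 4.11 CPM (−1.33, −2.35 to −0.54), and Comp, the cartilage oligomeric matrix protein, 0.996, 1.25, 6.63 and 3.96 (−1.04, −1.95 to −0.19). The fibrillar collagen genes Col11a1 (55.6, 108, 370 and 433 CPM) and Col11a2 (9.29, 24.9, 26.4 and 35.4 CPM) gave −0.72 and −1.0, the latter just short of the size threshold. The 3 members on the other side, none of them called and named after their values were seen, were Col2a1, the main cartilage collagen gene (0.89), Col10a1 (0.39) and Col9a2 (0.26). Under the single scale factor the chondrocyte median was −0.01.

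The small leucine-rich proteoglycans, which coat collagen fibrils, split by gene. Of 11 tested, 4 were called below (36.4%, against 2.64% of all genes) and 2 above (18.2%, against 3.14%), with a median of −0.54. Those below were Aspn, Omd, Ogn and Ecm2 (ECM2 is a relative of the family), which lie next to each other on chromosome 13 from 49504810 to 49624501 on the plus strand. Ogn, osteoglycin, held 223, 282, 1417 and 802 CPM (−1.15, −1.21 to −1.10). Aspn, asporin, held 133, 168, 1161 and 651 CPM (−1.17, −1.24 to −1.10), and Omd, osteomodulin, 12.5, 16.7, 66.2 and 39.4 (−1.17, −1.41 to −0.94). Ecm2 held 2.69, 5.19, 22.7 and 20.2 CPM (−1.10, −1.58 to −0.65). All 4 were higher in OB than in control, and in the library labelled siDNMT1_OB each lay below its OB level. The 2 above, named after their values were seen, were Dcn, decorin (6.75, 3.71, 3.71 and 4.71 CPM; 1.19), and Lum, lumican (0.959, 1.44, 1.41 and 4.82 CPM; 1.16). Biglycan, Bgn, gave −0.12 at 2007 to 3256 CPM.

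Bone matrix and mineralization genes showed no common direction. Of 15 tested, 3 were called above (20%, against 3.14% of all genes) and 1 below (6.67%, against 2.64%), with a median of 0.06. Spp1, osteopontin, held 548, 206, 187 and 271 CPM (1.95, 1.88 to 2.02). Dmp1, a phosphoprotein of mineralizing matrix, held 2.95, 2.42, 0.354 and 1.38 CPM (2.04, 0.99 to 3.66), and Slc20a1, a phosphate transporter that shares exon positions with Gm4430 on the opposite strand, 59.0, 48.6, 27.7 and 48.5 (1.09, 0.91 to 1.26). These 3 were lowered by induction with control siRNA. Phex, the endopeptidase lost in X-linked hypophosphatemia, was the gene below and was named after its value was seen, at 9.44, 4.53, 30.4 and 6.28 CPM (−1.21, −1.63 to −0.80). Col1a1, the main bone collagen gene, held 9646, 10973, 9102 and 10775 CPM and was additive to 0.06 (0.05 to 0.07), which total count scaling moved to 0.01. Among 15 tested OB transcription factors 1 was called below (6.67%, against 2.64% of all genes). It was Dlx6 (named after its value was seen), and the list median was −0.09.

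In the IGF axis 3 of 13 tested genes were called below (23.1%) and 2 above (15.4%), with a median of −0.11. Over all genes these shares were 2.64% and 3.14%. Igfbp5, a binding protein of bone matrix, held 1.07, 0.312, 62.3 and 5.34 CPM (−1.97, −2.96 to −0.40). Igfbp4, another binding protein, held 14.1, 19.7, 90.3 and 46.3 CPM (−1.45, −1.67 to −1.24), and Igf1, the ligand, 6.79, 9.02, 51.7 and 30.6 (−1.16, −1.48 to −0.85). The ligand and both binding proteins were highest in OB. Above were Pappa2, a protease that cleaves IGF binding proteins (1.55, 5.54, 5.08 and 46.1 CPM; 1.37), and Igfbp2 (1.44, 2.50, 1.24 and 7.14 CPM; 1.69), both named after their values were seen. For these DNMT1 siRNA and induction together gave the highest level.

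Retinoid genes went both ways. Of 11 tested, 2 were called below (18.2%) and 1 above (9.09%), with a median of −0.33. Over all genes these shares were 2.64% and 3.14%. Dhrs3, which reduces retinal back to retinol, held 0.111, 1.13, 6.67 and 7.92 CPM (−2.43, −5.49 to −1.37), from 3 counts in control, and lay 1.42% above additivity on the linear scale. Crabp2, which carries retinoic acid, gave −1.11. Rdh10, which makes retinal and was named after its value was seen, gave 1.86 (1.54 to 2.19) at 46.7, 17.6, 7.51 and 10.3 CPM. Of 18 tested integrins 5 were called above (27.8%, against 3.14% of all genes) and 0 below, with a median of 0.25. They were Itgb7, Itga3, Itga6, Itga10 and Itga9, and 29.0% of the windows of Itga10 are shared with Gm42957. Itga3, a laminin receptor subunit, held 8.67, 5.54, 24.6 and 45.1 CPM (1.51, 1.18 to 1.86), and Itga6, another laminin receptor subunit, 107, 74.7, 26.8 and 48.6 (1.38, 1.22 to 1.54). DNMT1 siRNA lowered both in untreated cells and raised both under induction. Of 7 tested striated muscle genes, 1 was called above and 1 below (14.3% each, against 3.14% and 2.64% of all genes). Tnnt2, cardiac troponin T, was above (1.60, 0.93 to 2.40). Dmd, dystrophin, named after its value was seen, was below (−1.39, −2.42 to −0.68), although on the linear scale Dmd lay above additivity.

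Of 9 genes that the study followed up from its RNA-seq by RT-qPCR, 7 passed the filter and Sox6 and Ihh did not. Dnmt1, which the study also measured by RT-qPCR during OB differentiation, is given above. Itga8, an integrin subunit, was raised strongly by each treatment and was close to additive, at 2.29, 11.2, 23.7 and 97.1 CPM with a difference of differences of −0.22 (−0.70 to 0.17). Fgfr2, a fibroblast growth factor receptor, held 7.56, 30.3, 69.0 and 113 CPM, at −1.28 (−1.52 to −1.05). It was the 1 called gene of the 7 (14.3%, against 2.64% of all genes called below). Its level in the library labelled siDNMT1_OB was the highest of the 4, and on the linear scale it lay above additivity by 9.87% of its summed CPM. Fgfr2 shares exon positions with Ctbp2 on the same strand. Rora, a nuclear receptor, held 5.2, 8.47, 12.6 and 11.5 CPM (−0.83, −1.23 to −0.44), and Sox9, the cartilage transcription factor, 94.0, 158, 196 and 232 (−0.50, −0.59 to −0.41). Both intervals left out 0 but neither gene reached the size threshold. Hey1 (−0.69, −1.74 to 0.43), Hdac9 (0.63, −0.11 to 1.48) and H19 (0.68, −3.33 to 2.38) had intervals that held 0, so a departure was not detectable at this depth. H19 had 2 counts in control. Its observed 4.37 CPM was close to the additive 4.38 CPM, so the 0.68 arose from the prior count.

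The other 36 lists with at least 5 tested members had medians between −0.50 and 0.49. Among pathway lists, 31 tested WNT genes had a median of −0.34. Called below were 3 (9.68%, against 2.64% of all genes), Sfrp2, Wnt5b and Fzd4. Lgr6 was the 1 called above (3.23%, against 3.14% of all genes). The 11 Hedgehog genes had a median of −0.46 with 1 called below (9.09%). The last was Gli1, the target gene that reports Hedgehog signalling, named after its value was seen, at 6.12, 17.5, 3.62 and 3.66 CPM (−1.49, −2.02 to −0.98). The 24 AP-1 and immediate early genes had a median of 0.46 with 4 called above (16.7%, against 3.14% of all genes). They were Fos, Jun, Fosl1 and Maff, likewise named after their values were seen. Fosl1, a FOS family subunit of AP-1, held 53.2, 29.0, 7.96 and 13.2 CPM (1.60, 1.31 to 1.90). The 78 cytosolic ribosomal protein genes (median −0.01), 13 mitochondrially encoded proteins (0.01), 70 nuclear respiratory chain genes (0.12) and 24 p53 targets (0.04) had no called member. Single p53 targets ranged from −0.81 to 0.64.

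The called genes were also described by gene type, level and position. Of genes below additivity 30.3% were not protein-coding, against 10.6% above and 11.7% of all tested genes. Genes below were also the lower expressed, a property on which the filter and the intervals depend, with a median mean level of 3.12 CPM against 13.6 above and 29.3 over all. Overlap with a gene on the opposite strand was found for 18.3% below, 13.7% above and 16.8% of all. On the 20 chromosomes with at least 100 tested genes, between 1.82% and 4.39% of genes were called above and between 1.77% and 3.80% below. Along the genome there were 3 runs of at least 3 neighbouring tested protein-coding genes called on the same side. One was the Ecm2, Aspn, Omd and Ogn cluster, and the others, both above, were Nuf2, Rgs5 and Rgs4 on chromosome 1 and Gsta4, Gsta1 and Mb21d1 on chromosome 9. Promoter features over all called genes were void, because 70.1% of genes above and 61.7% of genes below were matched in the promoter table.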

How the data were processed

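Poly(A) RNA of C3H10T1/2 cells was sequenced in 4 libraries, 1 per group. The authors deposited raw counts per gene, which per the study's methods came from reads trimmed with Trimmomatic, aligned with HISAT2 to mm10 (named in the submitters' processing notes) and counted with featureCounts. Use of strand and of reads with several positions was not given in the sources used here, so counts of overlapping genes and near copies can hold reads of the other gene. Total counts per library ran from 22296046 to 27367792, and every row had a gene name.

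From the deposited counts, genes with a mean of at least 1 CPM were kept, libraries were scaled by TMM (edgeR 4.0.16 under R 4.3.3, factors of 0.991 to 1.01) and log2 CPM used a prior count of 2. The 95% counting interval is the exact conditional interval of the odds ratio of the 4 counts, or a normal interval on the log scale where the smallest count was at least 200. Genes across the whole table were called at a size of 1, the study's threshold, with an interval that left out 0. Without replicates no test between conditions was possible. The additive level is siDNMT1 times OB over control. The method was tried on simulated Poisson counts, the error that the interval assumes. That trial held no variation between dishes and cannot show how many calls such variation would make. The alternative of a single scale factor for the OB response was added after the data were seen. Shared windows are the share of a gene's 75-base exon windows found in other genes. Coordinates are on GRCm38, and 98.3% of gene spans equalled those of GENCODE M21. Promoters came from a RefSeq table.

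Tool versions of the upstream steps were not given in the sources used here. Named genes were Dnmt1, the RT-qPCR genes, the 10 furthest each way (and 3 with under 10 counts in a library), up to 8 members of each list with a median at least 0.5 from 0 or at least 20% called, and genes with opposite effects of at least 1. The genes, lists and rules were chosen with earlier results of these data known. Some members that these rules select are not reported here. Symbols with several rows (5 repeats) count once in lists.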

Additional observations from a re-analysis of the deposited data

Results flagged for a closer look

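The siDNMT1 effect had opposite signs in untreated and OB cells for the 8 genes given here, which are the target and 7 genes with an effect of at least 1 in each state. Dnmt1 went down by 1.01 on the log2 scale without induction and up by 0.13 with it, a difference of differences of 1.13. Of the others, those above additivity given here were Gm7241 (3.24), Lgr6, a receptor of R-spondins (3.01) and Krt88 (2.62), with 5 or 6 counts in OB. Those below were Sfrp2 (−2.65), Gm17382 (−2.86), Adh1 (−3.52) and Slc1a2 (−3.76), of which the last 3 had 2 to 5 counts in control. With 1 library per group these differences were not tested, and each rests on the library labelled siDNMT1_OB, in which Dnmt1 was not lower than in OB.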

How the results depend on the processing

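No paired analysis was possible because each group had 1 library, and for the same reason no library could be left out. The 415 genes called above additivity and 350 genes called below additivity became 267 and 128 with a mean CPM of at least 5, 155 and 69 with counting intervals wholly past 1, 568 and 602 with every gene of at least 1 count, and 169 and 113 with a single scale factor for the OB response, an alternative added after the data were seen. Scaling, the prior count, the size threshold alone and protein-coding genes kept both counts within 1.5 times. The split between sides turned with total count scaling (370 and 392), upper quartile scaling (370 and 391) and every gene of at least 1 count. The single scale factor moved the list medians to 0.57 for replication, 0.52 for mitosis, −0.40 for interferon effectors, −0.088 for RNA sensors, −0.057 for complement, 0.22 for bone matrix, −0.013 for chondrocyte genes, 0.40 for glycolysis and 0.22 for AP-1 genes. A mean CPM of at least 5 left 6 chemokines with a median of −0.12, which reversed its sign, and 6 small leucine-rich proteoglycans with −1.13. On the linear scale 18 of the 350 genes called below turned above additivity and 2 of the 415 called above turned below. Those among the genes named by the rule were Fgfr2 (9.87% of summed CPM), Ifi44 (7.96%), Oas2 (21.4%), Oasl2 (9.35%), Usp18 (6.58%) and Dhrs3 (1.42%). With a limit of 0.5, 99 genes below were moved under induction only, against 60. Of 1063 values recomputed under the alternatives, 1030 were counted as unmoved. Of these, 155 are on the linear scale, where only a reversed sign of a list median or called gene counted as a change. The others moved by less than their counting spread or factor limit. The cause of these changes was not tested beyond what each alternative changes. Depth limits genes with few counts in control, whose intervals span several log2 units.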
